A study of Mus musculus with 4 samples.

Results

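Distal autosomal regions with a peak in every library are described here, in pachytene spermatocytes of the mouse profiled by ATAC-seq, an assay in which a transposase cuts open chromatin and each cut-rich stretch is called as a peak. A merged region was taken if it lay on chromosomes 1 to 19, was overlapped by a peak in all 4 lists, and had its midpoint 10 to 100 kb from the nearest annotated gene of any biotype. This gave 1108 regions of 155908 merged regions in the series. They were chosen by the presence of a peak in the lists and by distance, and are called kept distal regions below, where kept and lost refer to peak calls only. They are set against 5765 distal mock-only regions at the same distances, which had a peak in both mock libraries and in neither BMH-21 library.

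The cells came from mouse testes. For 12 h they received 2.5 µM BMH-21, a small molecule that blocks RNA polymerase I, or to the vehicle DMSO (mock). Each group has 2 libraries, named biological replicates by the submitters. The labels do not tie them to separate animals, and the spread between them may be technical. The BMH-21 lists held 51234 and 55459 peaks and the mock lists 109230 and 117905 peaks.

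Accessible chromatin far from genes usually marks enhancers, insulators or promoters of transcripts that no annotation lists yet. Enhancers are bound by transcription factors and act on promoters at a distance, whereas insulators, in mammals mostly bound by CTCF, shape chromatin loops. In pachytene cells the autosomes are paired and strongly transcribed, and many germ cell programmes are switched on at this stage. No genome sequence was used here, so which factors could bind the regions was not analysed.

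The labelled cell type was checked at gene ends, meaning no more than 1 kb from the start or end of a gene. Of 11 pachytene marker genes 10 had a peak in all 4 libraries, among them the synaptonemal complex genes Sycp1, Sycp2 and Sycp3 and the transcription factor gene Mybl1, while Ccna1 had none in any. Of 5 leukocyte genes 0 and 0 had a peak in the BMH-21 libraries, against 4 and 4 in the mock libraries, and the defining gene Ptprc had none in any library. The counts were 2 and 2 in BMH-21 against 4 and 4 in mock for 5 Leydig genes, 5 and 4 against 5 and 5 for 7 Sertoli genes, 2 and 3 against 4 and 4 for 5 spermatogonial genes, and 0 and 0 against 2 and 3 for 5 spermatid genes. Within these lists Tnp1 and Acrv1 of spermatids, Stra8 of spermatogonia, Hsd3b1 of Leydig cells and Gata4 of Sertoli cells had no peak in any library, while Kit and Zbtb16 of spermatogonia, Insl3 and Cyp11a1 of Leydig cells and Amh, Wt1 and Cldn11 of Sertoli cells had one in all 4. Over all 21887 protein-coding genes 61.0 and 61.5% had a gene-end peak in the BMH-21 libraries and 70.1 and 70.7% in the mock libraries. Of the 15040 with such a peak in both mock libraries, 11.5% had none in either BMH-21 library. In the marker lists this held for 4 of 5 leukocyte, 2 of 5 Leydig and 2 of 5 spermatid genes. It also held for 1 of 5 spermatogonial, 1 of 7 Sertoli and 0 of 11 pachytene genes. These counts are over all listed genes, with or without a mock peak, so their base is not that of the 11.5%. Mock replicate 1 had a gene-end peak at 4 leukocyte, 4 Leydig, 2 spermatid, 4 spermatogonial, 5 Sertoli and 10 pachytene genes. What part other cell types have in the distal calls was not tested. In such bulk samples, fewer cells with an open site and less opening per cell cannot be told apart.

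With all strengths pooled, distal regions were kept about as often as regions inside genes and far less often than gene ends. Of 7267 distal regions held by both mock libraries, 1108 were in all 4 lists (15.2%, exact Clopper-Pearson 95% interval 14.4 to 16.1%), against a background of 29.0% over all 70241 autosomal regions of both mock libraries. The mock-only share was 79.3% (78.4 to 80.3%), against a background of 63.7%. A further 394 of the 7267 distal regions had a peak in 1 BMH-21 library, against 5100 of all 70241. Regions inside genes but away from gene ends, the largest class with 35686 regions, had a kept share of 16.3% (15.9 to 16.7%) and a mock-only share of 75.2%, so the background is raised by gene ends. Seen from the treated side, 2463 distal regions were held by both BMH-21 libraries. Of these 45.0% were in all 4 lists, against a background of 73.6%. In neither mock library were 1014 of the 2463, against 5396 of all 27736 autosomal regions of both BMH-21 libraries. Elsewhere in genes it was 2406 of 9095. Presence in the lists chose the regions, so these shares are a description, and the intervals cover counting error only.

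The kept share was flat close to genes and fell off at long range. It was 18.3% of regions 1 to 2 kb from a gene, 18.9% at 2 to 5 kb and 18.3% at 5 to 10 kb. Within the distal window it was 17.2% (597 of 3481, 15.9 to 18.4%) at 10 to 20 kb, 14.7% (405 of 2758, 13.4 to 16.1%) at 20 to 50 kb and 10.3% (106 of 1028, 8.52 to 12.3%) at 50 to 100 kb. The intervals of the nearest and the farthest distal class did not overlap. Beyond 100 kb the share was 7.07% (48 of 679, 5.26 to 9.26%). Regions within 1 kb of a gene end stood far above all of these, with 62.7% (12080 of 19280).

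**Figure D1:**
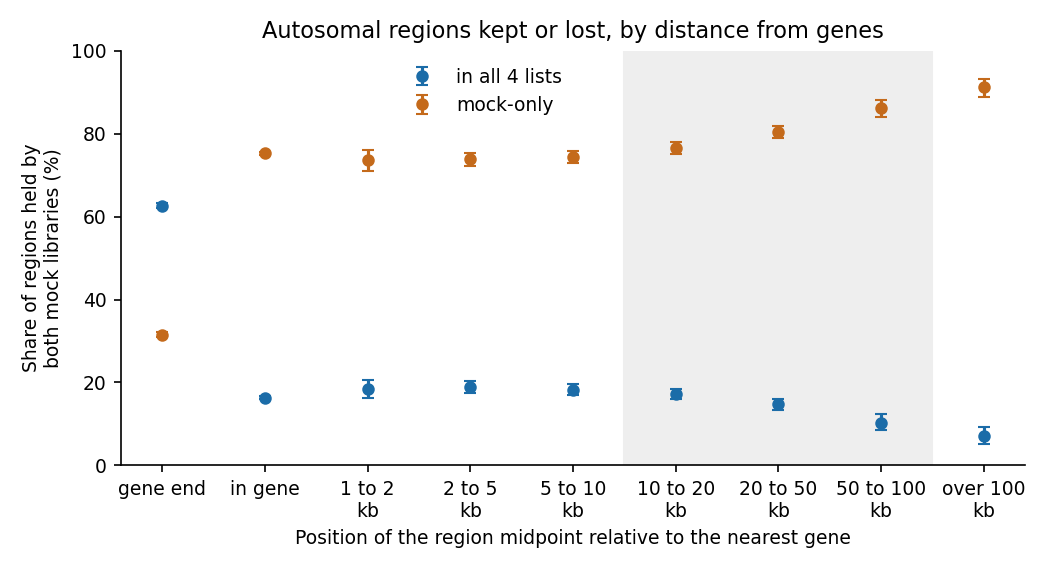
Share of autosomal regions held by both mock libraries (y axis, percent) that were in all 4 lists or mock-only, by position of the region midpoint relative to the nearest gene (x axis), with exact 95% binomial intervals and the distal window shaded. The kept share is 62.7% at gene ends, close to 18% from 1 to 10 kb, and goes from 17.2% to 10.3% across the distal window.

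Distal regions of high strength were also often lost. Strength was the mean percentile of the caller's fold in the mock lists, in 10 classes cut over all autosomal regions of both mock libraries. In the strongest class 133 of 345 distal regions were kept (38.6%, 33.4 to 43.9%), against 4655 of 5001 gene-end regions (93.1%) and 596 of 631 regions at the same distances on X (94.5%). Of regions inside genes but away from gene ends, 851 of 1378 were kept in that class (61.8%, 59.1 to 64.3%). In the weakest class 16 of 146 distal regions (6.40 to 17.2%), 315 of 1528 gene-end regions (18.6 to 22.7%) and 5 of 37 distal X regions (4.54 to 28.8%) were kept. Elsewhere in genes 336 of 4916 were kept in the weakest class (6.15 to 7.58%). Over all strengths, 3674 of 6457 distal X regions were kept (56.9%, 55.7 to 58.1%). In the strongest class the distal autosomal interval thus lay below those of all the other sets. In the weakest class it overlapped those of distal X regions and of regions elsewhere in genes.

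The kept distal regions occurred on every autosome. Their share of the distal regions of both mock libraries averaged 15.3 ± 2.88% over the 19 autosomes (SD), from 10.5% on chromosome 1 (60 regions) to 21.6% on chromosome 11 (77 regions). Chromosomes 2 and 5 carried the most, 89 each, and chromosome 19 the fewest, 21. The regions made up 3.29 and 3.13% of the autosomal peaks of the BMH-21 lists and 1.29 and 1.20% of those of the mock lists.

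Kept distal regions were wider than distal mock-only regions, narrower than gene-end regions and mostly single peaks. The merged regions were 221 to 2302 bp wide with a median of 681.5 bp, against medians of 405 bp for distal mock-only regions and 1076 bp for gene-end regions in all 4 lists. In 954 of the 1108 regions every library had exactly 1 peak. The median width covered by peaks was 483 and 486 bp in the BMH-21 libraries and 459.5 and 470 bp in the mock libraries, where distal mock-only regions had 338 and 345 bp. Of the 1108 regions 397 (35.8%) had wider cover in both BMH-21 than in both mock libraries, against a background of 26.1% over all 20403 autosomal regions in all 4 lists. A further 348 (31.4%) had narrower cover in both, against a background of 44.7%, and in 363 the groups overlapped. The contrast is the one that chose the regions, so nothing is read from these counts.

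Peak strength in kept distal regions was similar in the 4 libraries. The fold, deposited by the authors as the summit pileup over the local background of the same library, had medians of 5.86 and 6.26 in the BMH-21 libraries and 5.38 and 5.46 in the mock libraries. The lowest values were 1.66 and 1.74 in the BMH-21 and 2.02 and 2.24 in the mock libraries, and the highest 17.4 and 18.7 in the BMH-21 and 21.4 and 21.8 in the mock libraries. The groups did not overlap in the medians, but their ranges over regions did. The folds are not normalised between libraries. Distal mock-only regions were weaker, with median folds of 4.51 and 4.70 in the mock libraries.

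The fragment pileup recovered from the peak statistics gave a like picture. The median pileup at the summit of a kept distal region was 39 and 39 fragments in the BMH-21 libraries and 37 and 37 in the mock libraries. The median local background was 5.20 and 4.86 fragments in the BMH-21 libraries and 5.44 and 5.26 in the mock libraries, close to the genome-wide floors of 4.46 and 4.11 and of 4.54 and 4.31 fragments. At gene-end regions in all 4 lists the local background was higher, with medians of 11.9 and 11.7 in BMH-21 and 13.0 and 12.9 in mock libraries. Distal mock-only regions had medians of 4.54 and 4.31 in the mock libraries, and distal X regions in all 4 lists had the same values there. In the BMH-21 libraries these X regions had 6.06 and 6.22. Kept distal regions thus stood on background near the floor, but so did the other distal sets. In the mock libraries the kept distal medians were the highest of the distal sets.

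**Figure D2:**
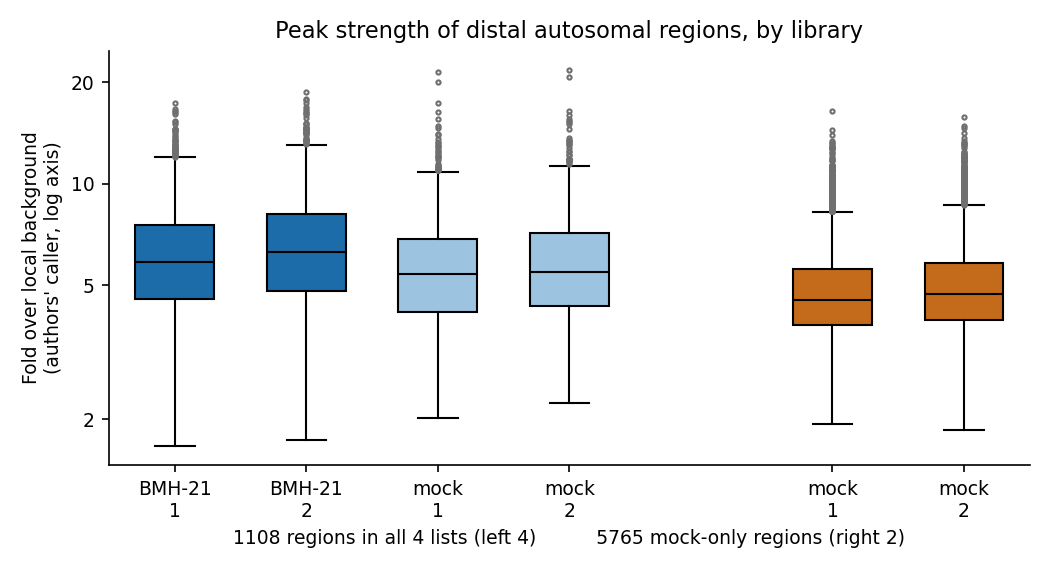
Fold over local background (y axis, log scale, the authors' values) for the kept distal regions in the BMH-21 (dark blue) and mock libraries (light blue) and for the distal mock-only regions in the mock libraries (orange); lines mark medians, boxes the quartiles, whiskers the most distant value within 1.5 box lengths and points values beyond. Medians of the kept regions are 5.86 and 6.26 in BMH-21 and 5.38 and 5.46 in mock libraries, and those of the mock-only regions 4.51 and 4.70.

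As a place within each list, the median percentile of the fold was 71.3 and 74.2 in the BMH-21 libraries and 70.5 and 71.2 in the mock libraries. The group means of these medians differed by 1.93 points, BMH-21 minus mock (exact permutation p = 0.33, two-sided, the smallest possible with 2 libraries a group). With the regions chosen anew from the 3 other lists, the difference was -1.34 points without BMH-21 replicate 1 and -2.08 points without BMH-21 replicate 2. With lists cut to equal length, which also changes the regions, it was 15.8 points. The p supports nothing, since the same contrast chose the regions. Lists of different length cannot show a change by such percentiles.

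Ranks were therefore also taken among the 20403 autosomal regions that all 4 lists share, the same set in each library. By this measure kept distal regions stood higher in BMH-21 cells, with median percentiles of 43.7 and 45.5 in the BMH-21 libraries and 37.0 and 35.9 in the mock libraries. Of the 1108 regions 534 (48.2%, 45.2 to 51.2%) ranked higher in both BMH-21 than in both mock libraries, against a background of 39.5% over all 20403. A further 287 (25.9%) ranked lower in both, against a background of 41.1%, and in 287 the groups overlapped. Gene-end regions, 12080 of the 20403, went the other way, with 36.2% higher and 45.9% lower. The mean percentile of a fixed set is the same in every library, so a rise in some classes entails a fall in others. The fall at gene ends is therefore not a separate result. Gene-end regions had median percentiles of 58.2 and 57.5 in the BMH-21 and 62.1 and 61.5 in the mock libraries. Both sets thus lay nearer the middle of the scale in BMH-21, and they were not matched for rank in mock. What part the starting rank has in either shift was not tested. The median difference was 8.31 points in kept distal regions, 2.15 points in regions elsewhere in genes and -2.60 points at gene ends. A rank within a fixed set shows order only, not the level of accessibility. These values are a description, because the contrast is the one that chose the regions.

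**Figure D3:**
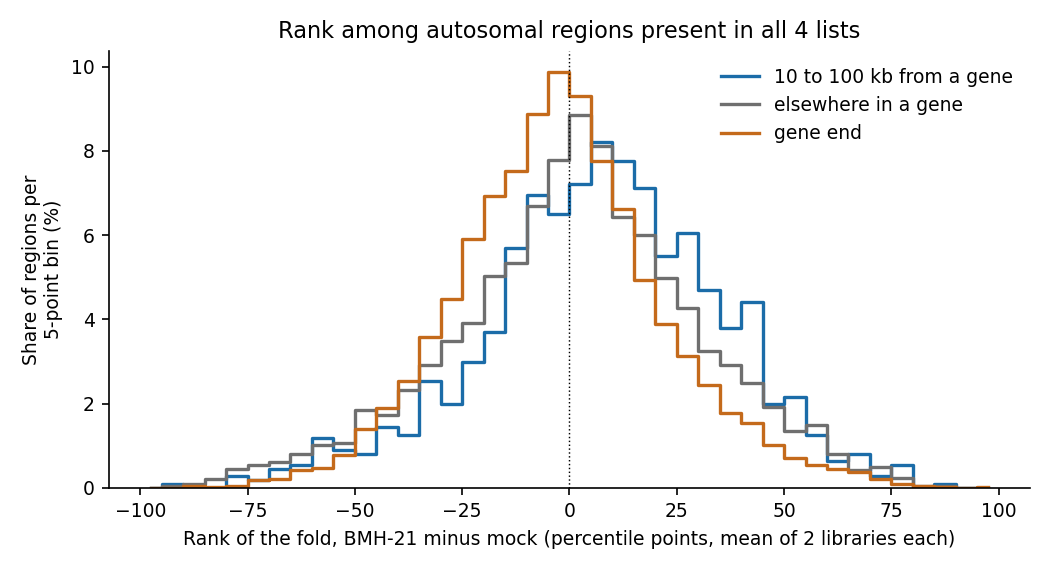
Difference in the percentile rank of the fold, BMH-21 minus mock (x axis, percentile points, mean of 2 libraries each), as the share of regions per bin of 5 points (y axis), for autosomal regions in all 4 lists. The distal curve is shifted to the right, with a median of 8.31 points, against -2.60 points at gene ends.

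Single regions departed far from this average. Those named next had the largest shifts of the within-list percentile, and not all would be named by the rank in the common set. Next to Auts2, a neurodevelopmental gene, a region at chr5:132595608-132596049 (mm10), 52.6 kb from the gene, had folds of 11.1 and 11.2 in BMH-21 and 2.85 and 3.55 in mock libraries. Its pileups were 66 and 67 fragments in BMH-21 and 18 and 20 in mock cells, on similar background, so both BMH-21 values lay above both mock values. A region at chr11:119053232-119053642, 12.5 kb on the 5′ side of the Polycomb gene Cbx8, had folds of 8.94 and 9.02 in BMH-21 and 2.81 and 2.63 in mock libraries. There the pileup was 130 and 119 against 86 and 80 fragments, while the local background was 13.7 and 12.3 in BMH-21 and 30.0 and 29.8 in mock libraries, so both parts of the ratio differed. The other 3 of the 5 regions with the largest upward shift of the within-list percentile had the lncRNA genes Gm32806 and Gm31842 and the protein-coding gene Gm6569 nearest to them, with folds of 6.29 to 10.2 in BMH-21 and 2.69 to 3.57 in mock libraries.

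In the opposite direction, a region at chr3:159787413-159788279, 51.8 kb from Wls, whose product carries Wnt proteins to the cell surface, had folds of 3.85 and 3.13 in BMH-21 and 13.2 and 9.60 in mock libraries. Its pileup was 20 and 15 against 72 and 50 fragments. The largest downward shift, by either measure, was in a region at chr7:69929250-69930160 beside the snoRNA gene Gm24120, with folds of 2.44 and 3.33 in BMH-21 and 12.5 and 11.7 in mock libraries. Its pileups overlapped, at 58 and 74 fragments in BMH-21 and 73 and 75 in mock libraries, whereas the local background was 23.2 and 21.5 against 4.92 and 5.52. That difference in fold therefore lay in the background around the summit. The region by Gnao1, which encodes the alpha subunit of a heterotrimeric G protein, had folds of 3.29 and 2.96 in BMH-21 and 7.38 and 7.02 in mock libraries. Those beside Gm23909 and Gm6332 had folds of 2.75 to 3.45 in BMH-21 and 6.93 to 7.90 in mock libraries. By Gm23909 the pileup was higher in BMH-21, at 59 and 68 against 41 and 41 fragments. The local background there was 20.8 and 21.5 in BMH-21 and 4.90 and 5.06 in mock libraries. By Gm6332 the pileup was lower in BMH-21, at 50 and 45 against 78 and 65 fragments. By the rank in the common set the difference was 51.2 to 86.8 points in the 5 upward regions and -90.7 to -53.0 points in the 5 downward regions. These regions were picked for their shift, which is given as a description.

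The 10 kept distal regions with the highest mean fold lay near 5 pseudogenes, 3 lncRNA genes and 2 protein-coding genes. The strongest was at chr15:75086609-75087043, 11.8 kb from the pseudogene Gm5960, with folds of 14.5 and 15.2 in BMH-21 and 20.02 and 20.69 in mock libraries. The 2 protein-coding neighbours were Map3k7, which encodes the kinase TAK1 of inflammatory and TGF-beta signalling, and Klf4, a transcription factor gene known from pluripotency and from postmeiotic germ cells. The region 25.7 kb on the 5′ side of Map3k7 (chr4:31937365-31938236) had folds of 14.5 and 16.0 in BMH-21 and 12.0 and 12.5 in mock libraries. The region 12.2 kb on the 3′ side of Klf4 (chr4:55514541-55515387) had folds of 12.6 and 12.2 in BMH-21 and 13.9 and 15.4 in mock libraries. Both genes had a gene-end peak in all 4 libraries.

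Among these 10 the order of the groups differed. Near A630089N07Rik, a lncRNA gene, the folds were 7.15 and 7.82 in BMH-21 and 21.4 and 21.8 in mock libraries (chr16:98107086-98107644). Near Gm13715, also a lncRNA gene, they were 17.4 and 17.9 in BMH-21 and 9.93 and 11.9 in mock libraries (chr2:85266688-85267224). In all, BMH-21 values were above both mock values in 5 of the 10 regions, namely those beside Gm44221, Gm13715, Map3k7, Gm19084 and Gm32328, and below both in the other 5. Groups that do not overlap were the usual case in these data. By rank, 39.5% of all 20403 autosomal regions in all 4 lists were higher in both BMH-21 libraries and 41.1% lower. The folds are not normalised between libraries, so nothing is read from the counts among the 10. Whether some of these strong regions hold repeated sequence was not analysed here. The strongest distal mock-only region, beside the pseudogene Gm9584 (chr16:65255925-65256638), had folds of 16.5 and 14.6 in the mock libraries, and the next lay 44.0 kb from Rab11fip2, a gene of endosome recycling, with 14.4 and 13.2. Those beside Gm26567, Gm20952 and A830031A19Rik had mock folds of 11.4 to 15.8. The strongest lost distal regions were thus in the range of the strongest kept ones.

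Summits, the highest point of each peak, stayed closer together between groups in kept distal regions than at gene ends. Summit position was not used to choose the regions. Over the 954 regions with 1 peak per list, the median distance between summits was 46.5 to 49 bp for the 4 pairs of a BMH-21 with a mock library, 18 bp between the BMH-21 libraries and 27 bp between the mock libraries. All 4 between-group values lay above both within-group values. At 10639 gene-end regions the between-group medians were 115 to 117 bp, while the within-group medians were 15 and 24 bp. Both BMH-21 summits lay over 50 bp to the same side of both mock summits in 225 of the 954 distal regions (23.6%, 20.9 to 26.4%), against 48.8% (47.8 to 49.7%) at gene ends, 32.9% (31.6 to 34.2%) elsewhere in genes and 12.2% (11.1 to 13.3%) of distal X regions. On X the BMH-21 libraries themselves were a median of 50 bp apart. The mean summits of the groups were a median of 38 bp apart on X and 42.75 bp in kept distal regions. What part each has in the lower count on X was not tested.

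Gene-end regions were also wider. Among regions of 500 to 1000 bp, a restriction chosen after seeing the data, summits were over 50 bp apart between groups in 25.4% of 539 distal regions (21.8 to 29.3%) and 42.6% of 4301 gene-end regions (41.1 to 44.1%). The contrast was thus present in this range of widths, but smaller than over all widths (23.6 and 48.8%). Within the range the sets were not matched for width or pileup, so the part of either was not tested. Regions are not replicates, and with 2 libraries a group no exact test over libraries could reach a p below 0.33.

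**Figure D4:**
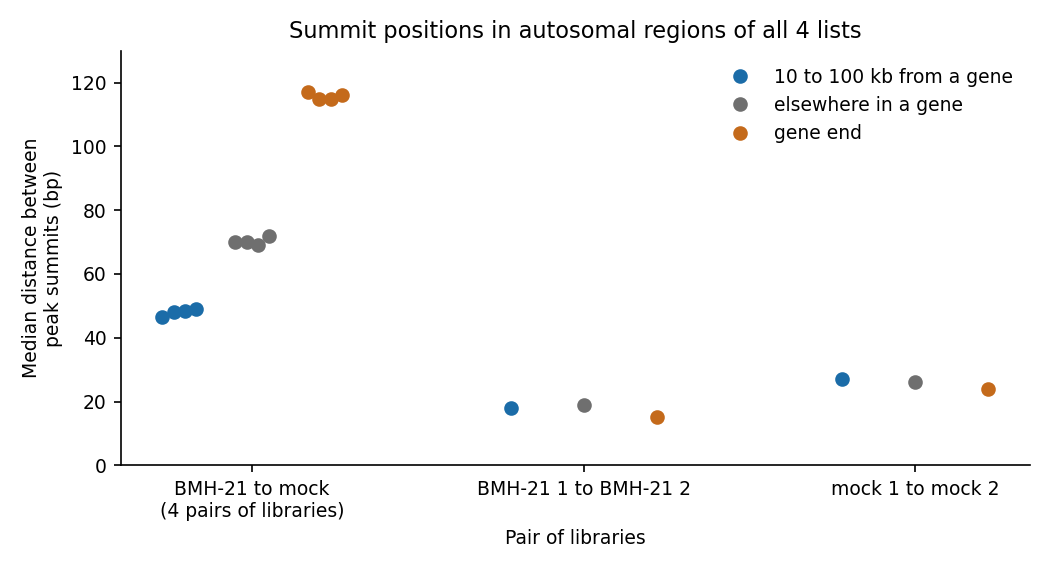
Median distance between the summits of the same region in 2 libraries (y axis, bp) for pairs between the groups, between the BMH-21 libraries and between the mock libraries (x axis), in autosomal regions with 1 peak in each of the 4 lists; each point is 1 pair of libraries. Between-group points are at 46.5 to 49 bp in distal regions, 69 to 72 bp elsewhere in genes and 115 to 117 bp at gene ends, while pairs within a group are at 15 to 27 bp in the 3 classes.

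Kept distal regions lay nearer to other kept regions than distal mock-only regions did. The median distance to the nearest other region in all 4 lists was 25.9 kb for the 1108 kept distal regions and 48.5 kb for the 5765 mock-only regions, and kept distal regions were nearer on 19 of the 19 autosomes. The same order was found at each distance from genes, with 19.6 against 26.7 kb at 10 to 20 kb, 32.6 against 57.4 kb at 20 to 50 kb and 73.6 against 142 kb at 50 to 100 kb. The distance to the nearest mock-only region differed little, with 13.4 kb for kept distal and 14.2 kb for mock-only regions. To the nearest region of any list it was shorter for kept distal regions, with medians of 3.73 and 4.88 kb. Such a region lay within 10 kb of 78.8% of kept distal and 67.2% of mock-only regions. Whether the closeness to kept regions follows from a higher density of peaks was not tested. Kept and lost sites were therefore interspersed, since 42.0% of kept distal regions had a mock-only region within 10 kb.

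**Figure D5:**
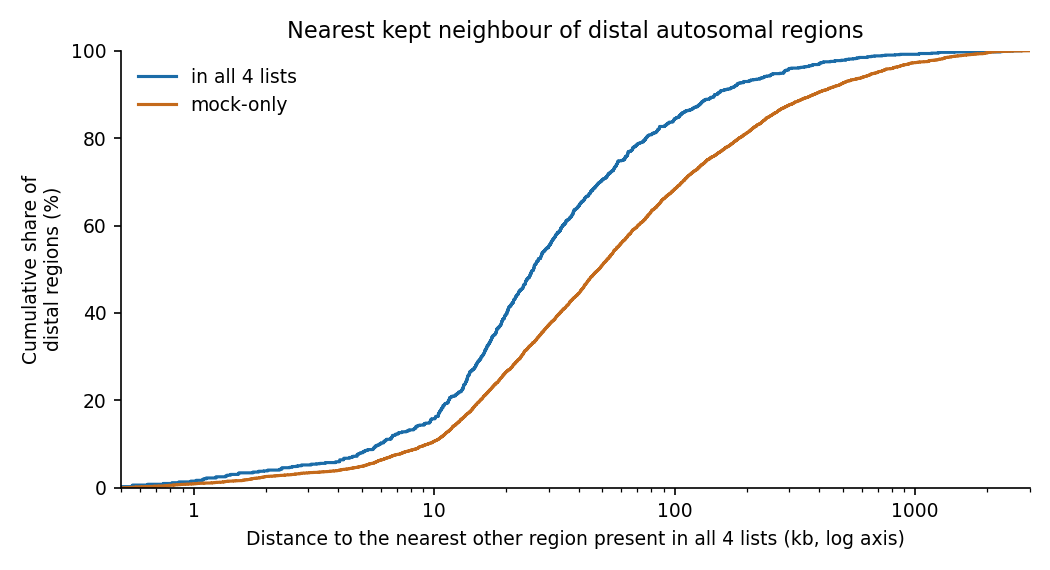
Cumulative share of distal autosomal regions (y axis, percent) by distance to the nearest other region present in all 4 lists (x axis, kb, log scale), for kept distal and mock-only regions. The medians are 25.9 kb for kept and 48.5 kb for mock-only regions.

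Among distal regions alone the same held, less strongly. Of the other distal regions of both mock libraries within 50 kb of a kept distal region, 446 of 2172 were in all 4 lists (20.5%), against 1550 of 9709 around mock-only regions (16.0%). A kept distal region had at least 1 such kept neighbour in 29.7% of cases and a mock-only region in 19.5%. At least 1 such neighbour, kept or not, was present for 69.5% of kept distal and 64.3% of mock-only regions. Most kept distal regions stood alone, since 961 had no other within 10 kb. The rest formed 57 pairs and 11 runs of 3. One run of 3, named after its values were seen, lay between Fscn1, which encodes an actin-bundling protein, and Actb, the gene of beta-actin (chr5:142923979-142936770), with mean folds of 3.31 to 6.004. Another lay beside Klrb1c, a natural killer cell receptor gene (chr6:128753908-128764534), with mean folds of 4.68 to 5.11.

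The genes next to kept distal regions were more often accessible in all libraries than those next to mock-only regions. The nearest gene had a gene-end peak in all 4 lists for 463 of 1108 kept distal regions (41.8%, 38.9 to 44.8%) and 1833 of 5765 mock-only regions (31.8%, 30.6 to 33.0%), with the same order on 17 of the 19 autosomes. Over all autosomal genes 33.4% had such a peak. When the nearest gene was protein-coding the shares were 71.7% (359 of 501, 67.5 to 75.6%) and 64.2% (1476 of 2300, 62.2 to 66.1%), and for lncRNA genes 22.3% (87 of 391) and 16.4% (309 of 1887). Nearest genes whose end peaks were themselves mock-only were about as frequent beside both sets, 122 of 1108 and 655 of 5765. Kept distal regions also lay nearer a gene, with medians of 18.8 and 21.5 kb, but the order held at 10 to 20 kb (46.1 and 38.5%), 20 to 50 kb (39.3 and 29.8%) and 50 to 100 kb (27.4 and 16.6%). With distances taken to protein-coding genes alone, which gives 2243 kept distal regions, the difference between the sets was 2.64 points in place of 9.99.

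By biotype, the nearest gene was protein-coding for 45.2% of kept distal and 39.9% of mock-only regions, a lncRNA gene for 35.3 and 32.7%, and a pseudogene for 15.0 and 21.5%. The strand was known for 388 kept distal and 1853 mock-only regions next to a protein-coding gene. Kept distal regions lay on the 5′ side of that gene in 54.4% of cases (211 of 388, 49.3 to 59.4%) and mock-only regions in 45.7% (847 of 1853, 43.4 to 48.0%). Next to lncRNA genes the shares were 42.1% (120 of 285, 36.3 to 48.1%) and 45.4% (42.9 to 48.0%), with overlapping intervals. The contrast for protein-coding genes was 8.67 ± 5.56 points, where the error combines the 95% intervals of both shares. The contrast was 2.46 ± 2.69 points with distances to protein-coding genes alone, 5.49 ± 6.28 with summit windows and 7.07 ± 7.64 with equal lists, each of which includes 0. It was chosen after seeing the data. The errors cover counting only and take regions as independent, although the 1108 kept distal regions had 971 distinct nearest genes. Regions are not replicates, so the contrast is a description.

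Few kept distal regions lay next to the germ cell and developmental genes listed for this work. Of 12 distal regions of both mock libraries nearest to a gene of meiosis or of the pachytene stage, 0 were kept (up to 26.5% by the exact interval) and 11 were mock-only. Of 14 next to spermatid genes 1 was kept (7.14%, 0.181 to 33.9%), 35.8 kb on the 5′ side of Spata16, a gene needed for the acrosome. Its folds were 4.21 and 5.28 in BMH-21 and 9.66 and 9.15 in mock libraries, and its pileups 22 and 26 against 85 and 81 fragments, with both BMH-21 values below the mock values. Of 4 next to spermatogonial genes, 3 next to genes of somatic testis cells and 6 next to genes of ribosome biogenesis and RNA polymerase I, 0, 0 and 0 were kept. These counts are too small to set against the distal share of 15.2%.

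Developmental transcription factor genes were nearest to 46 distal regions of both mock libraries, of which 5 were kept (10.9%, 3.62 to 23.6%), next to Irx5, Pbx3, Satb1, Six6 and Sox6. The region 58.3 kb on the 3′ side of Satb1, a genome organiser of lymphocytes, had folds of 9.71 and 11.3 in BMH-21 and 9.75 and 7.34 in mock libraries, which overlap. The region 17.3 kb on the 3′ side of Sox6, a factor of cartilage, neurons and red cells, had folds of 9.65 and 10.2 in BMH-21 and 5.01 and 5.19 in mock libraries, with no overlap. Its pileups were alike, 65 and 66 against 65 and 58 fragments, while the local background was 5.84 and 5.58 in BMH-21 and 12.2 and 10.4 in mock libraries. The region next to Six6, an eye and pituitary factor, had folds of 4.93 and 6.33 in BMH-21 and 6.32 and 7.34 in mock libraries, which overlap.

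Regions near the bounds of the distance window ranged widely in strength. Just inside 10 kb were regions 10.013, 10.014 and 10.018 kb from Gpr132, Nps and Gm36528, with folds of 4.19 to 10.2 in BMH-21 and 3.20 to 8.84 in mock libraries. Just outside were regions 9.984, 9.960 and 9.943 kb from 4930428O21Rik, Slc38a2 and Spaca7, with folds of 8.82 to 13.0 in BMH-21 and 3.52 to 11.7 in mock libraries. The mean folds were 4.78 to 9.16 for the 3 inside and 7.53 to 10.2 for the 3 outside. At the far bound the regions just inside lay 99.3, 97.0 and 94.9 kb from Irx5, a homeobox gene, H2al2a, a histone gene, and Gm52021. Their folds were 3.91 to 6.05 in BMH-21 and 5.23 to 7.66 in mock libraries. Those just outside lay 100.1 to 101.8 kb from a gene, with folds of 4.21 to 14.1 in BMH-21 and 5.60 to 7.40 in mock libraries. The 3 widest kept distal regions, of 2302, 2026 and 1959 bp, lay nearest to D130051D11Rik, Stac2 and Fam50b. Their folds were 5.23 to 7.995 in BMH-21 and 3.83 to 6.50 in mock libraries.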

How the data were processed

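Peak lists from ATAC-seq of 4 libraries were used, 2 BMH-21 and 2 mock, grouped by their titles. Per the submitters' processing notes, fastp, Bowtie2, bedtools, deepTools and MACS2 2.1.0 were used, with no role or order given. Peak calling parameters, duplicate removal and any shift for the transposase are not given in the sources used here, and read totals are unknown. Peaks were called per library. The deposited fold is a ratio of summit pileup to local background within 1 library. The deposited −log10 values give the p and q of each peak. The deposited score, 10 times the −log10 q as a whole number, was not used. None of them is normalised between libraries.

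The notes name mm39 and mm10. On chromosome 1 peaks reach 195371813, past its end in mm39, so the coordinates are treated as mm10, with genes from RefSeq GRCm38.p6 (49943 genes). Peaks overlapping by at least 1 bp were merged, and each library was scored for having a peak in the merged region. The highest fold in a region stood for a library. Pileup and background were recovered from fold and p by the Poisson relation of the caller with a pseudocount of 1, with errors in −log10 p below 0.0008. The strand of 590 of 971 nearest genes came from the RefSeq promoter table. Planned CpG and motif counts were not run for lack of a genome sequence. The percentile was compared by exact permutation of the group labels, and shares have exact 95% intervals. Python 3.11.15, scipy 1.17.1 and bedtools 2.31.1 were used, and the procedures were tested on simulated lists.

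The regions and gene lists were chosen with earlier results of these data known. Named regions were the 10 with the highest mean fold, the 5 with the largest shift of within-list percentile each way, the 3 widest, the 3 on either side of each distance bound, the 5 strongest mock-only and up to 3 per gene list.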

Additional observations from a re-analysis of the deposited data

How the results depend on the processing

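The number of kept distal regions was 511 at 20 to 100 kb, 1731 at 5 to 100 kb, 2243 with distance to protein-coding genes only, 678 with 50% overlap and 650 with lists of equal length, and 1230 to 1351 without single libraries. Their share of the distal regions of both mock libraries was 13.5, 16.2, 20.1, 10.2 and 20.9% in the same order, 12.9% with summit windows and 11.6 to 18.6% without single libraries. The difference in distance to the nearest region in all 4 lists, kept distal minus mock-only, was -22.6 kb, and -43.5 kb at 20 to 100 kb, -38.7 kb with equal lists, -8.33 kb with protein-coding genes only and -17.8 to -23.5 kb without single libraries. The difference in the share of nearest genes kept was 9.99 points, 2.64 points with protein-coding genes only and 8.71 to 9.60 points without single libraries. These kept their direction under all alternatives run. The within-list percentile difference of 1.93 points was reversed at 20 to 100 kb (-0.48) and with 50% overlap (-0.12), was 15.8 with equal lists, and was -2.08 to 6.72 without single libraries. The cause was not tested.

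Results chosen after seeing the data also kept their direction. Regions ranked higher minus regions ranked lower made 22.3 points, 17.4 at 20 to 100 kb and 18.2 to 27.4 without single libraries. The summit contrast of -25.2 points with gene ends was -28.1 with 50% overlap, -28.9 with equal lists, -22.2 with summit windows and -23.1 to -23.9 without single libraries. The 5′ side contrast of 8.67 points was 2.46 with protein-coding genes only, with an interval that includes 0 there, with summit windows and with equal lists, and 5.89 to 9.45 without single libraries. With a replicate block the percentile difference stayed at 1.93 points (exact sign-flip p = 0.5, the smallest for 2 pairs), and the correlation of same-numbered deviations over the 1108 regions was 0.0261, so the numbers were not taken as pairing the samples. With 2 libraries a group and unknown read depth, a missing peak may lie just under the caller's threshold.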
